A study of Homo sapiens with 4 samples.

Results

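The genes described here are 35 genes of glycolysis and glycogen metabolism. They were picked by their place in the pathway, with earlier results of these data known. A gene was measured by each array probe that the platform's annotation assigns to its symbol alone. This held for 34 of the 35 genes, with 45 probes among them, out of 18255 named genes on the array. The exception was PGAM1, whose probes are annotated to PGAM4 as well. Where a gene had several probes, the one with the highest mean log2 value over the 4 arrays stood for it, and the others are given beside it. Of the 34 measured genes, 31 reached the intensity filter, a mean log2 value of 7.81 that corresponds to an intensity of 223, and so did 9128 of all named genes. The 3 below it were PFKFB2, PDK2 and GYS1.

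Glycolysis carries glucose to pyruvate in the cytosol. Glucose enters through transporters, is phosphorylated and committed at hexokinase and phosphofructokinase, and is then cleaved into trioses that yield ATP at phosphoglycerate kinase and pyruvate kinase. Pyruvate is reduced to lactate and exported, or enters mitochondria through pyruvate dehydrogenase, which the PDK kinases inhibit. Glycogen is the stored form of glucose, built by glycogen synthase and branching enzyme and broken down by phosphorylase. Carcinoma lines such as A549 rely heavily on aerobic glycolysis, and several isoforms of these enzymes are known targets of hypoxia-inducible factor.

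The samples were cultures of A549, a human cell line from a lung adenocarcinoma, transfected, taken at 48 h and profiled on 1 one-colour array per group. The groups were siPML (an siRNA against PML) with siCtrl (a control siRNA) as its reference, and WDR4 (overexpression of WDR4) with vector (the vector alone) as its reference. PML is the scaffold of PML nuclear bodies, and WDR4 is a cofactor of a tRNA methyltransferase. The 4 groups thus share the cell line and the time, while the siRNA pair and the overexpression pair differ in what was transfected and in the culture, which cannot be told apart.

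With 1 array a group there was no test. A difference below is a log2 difference of intensities after 1 was added to each, and it compares arrays. The only error that could be measured was technical. Dim deposited values resolved into the mean of a pair of whole-number readings, and the spread of these pairs gave a standard error of 0.115 for the siPML minus siCtrl difference and of 0.083 for the WDR4 minus vector difference. The matching 95% half-widths were 0.22 and 0.16. They were measured on probes between 300 and 600 units, were assigned to brighter probes, are too narrow for dimmer ones, and leave out all variation between cultures. In RNA of whole cultures, a change in the number of expressing cells and a change in RNA per cell cannot be told apart.

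The median probe intensity lay between 106 and 134 on the 4 arrays, and 39 to 58 of 31741 probes an array were at the scanner limit. The brightest PML probe read 506 on siPML and 853 on siCtrl (-0.75), and 5015 on WDR4 and 3840 on vector (0.38). The dimmer PML probes were lower on siPML as well, by -0.28, -0.42 and -1.44, so the size of the difference depended on the probe. On WDR4 they differed by 0.03, 0.30 and -0.14. The brighter of the WDR4 probes read 4708 on WDR4 against 1140 on vector, and the dimmer read 890 against 1191. On siPML and siCtrl that brighter probe read 1271 and 2350. Of 7 markers of the A549 line with its high NRF2 output, 6 were above the filter intensity on every array, NQO1 being the exception at 13.0 to 27.5. Among epithelial markers KRT19, EPCAM and CDH1 were above it and KRT8 was not, and all 5 alveolar markers were below it. PTPRC, CD3E, all 3 endothelial markers, COL3A1 and DCN were below it as well, COL1A1 read 411 to 604, and CD14 read 2852 on siPML, 9183 on siCtrl, 5205 on WDR4 and 7453 on vector.

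Intensities of the pathway genes covered the whole scale. At the top, ENO1 was at the scanner limit on all 4 arrays, and GPI, GAPDH and LDHA were at or above 80% of the array maximum on all 4. ALDOA and LDHB were that bright on some arrays. Between arrays where a probe was at or near the limit, its differences may be compressed. At the bottom, PFKFB2, PDK2, GYS1, PKLR, FBP1 and SLC2A1 read between 69.2 and 437.

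**Figure D1:**
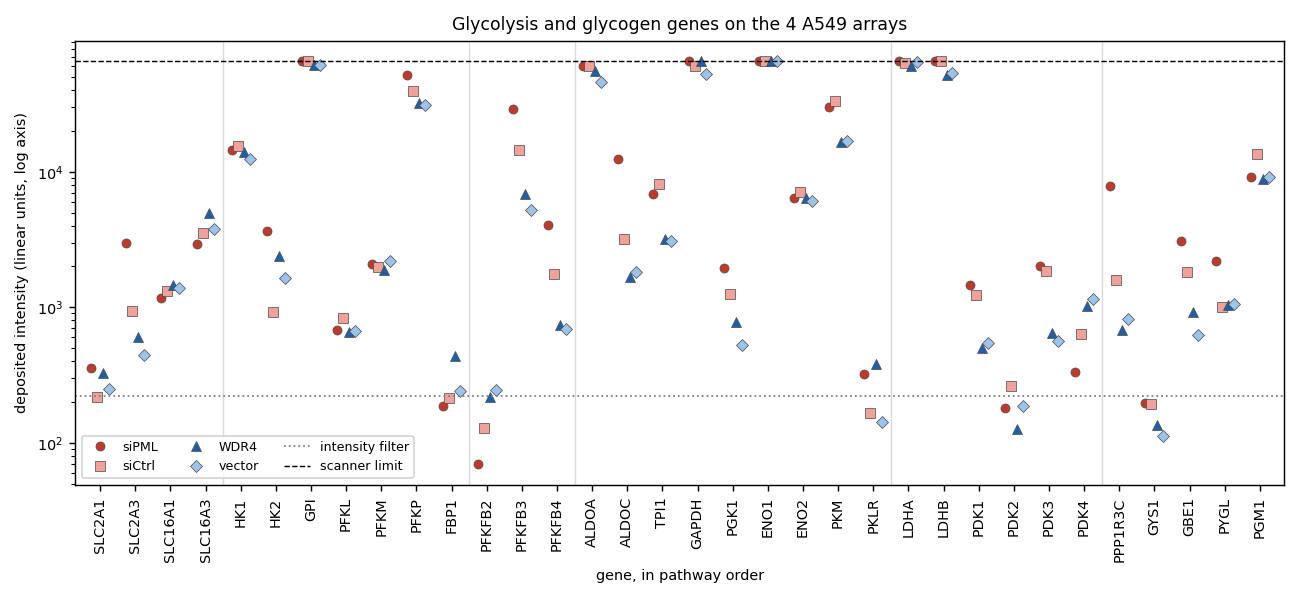
Deposited intensity (linear units on a log axis) of the 34 measured genes in pathway order, with 1 point per array for siPML, siCtrl, WDR4 and vector. The dotted line marks the filter intensity of 223 and the dashed line the scanner limit, where ENO1 lies on all 4 arrays.

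On siPML, a glucose transporter, a hexokinase, an aldolase, both inducible PFKFB enzymes and a pair of glycogen genes stood at least 2-fold above siCtrl, while HK1, PKM, TPI1 and ENO2 did not. PPP1R3C, which brings protein phosphatase 1 to glycogen, was 4.90-fold higher. HK2, the inducible hexokinase, was 4.004-fold higher, ALDOC, the brain-type aldolase, 3.88-fold, and SLC2A3, the high-affinity glucose transporter GLUT3, 3.18-fold. PFKFB4 and PFKFB3, which make the activator of phosphofructokinase, were 2.26-fold and 2.02-fold higher, and PYGL, the liver-type glycogen phosphorylase, was 2.21-fold higher. These were 7 of the 31 genes above the filter, or 22.6%, where 2.30% of all 9128 genes were at least 2-fold higher. None of the 31 was at least 2-fold lower, against 4.27% of all genes. Because the list was chosen with earlier results of these data known, these shares describe it and do not test it. The span of the middle 95% of all genes ran from -1.19 to 0.97. Its upper end is just below 2-fold, so these 7 genes lay above it by construction.

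The median difference of the 31 genes was 0.07, against 0.01 for all genes above the filter, so the list as a whole did not lie far from the rest of the array. Without the 6 genes at or near the scanner limit the median of the other 25 was 0.26. Of these 25, 13 were higher and 5 were lower on siPML by more than the technical half-width, and 7 were within it. The corresponding shares of all genes above the filter were 31.0% higher and 30.8% lower. The 13 include PKLR, which passed the filter through its values on siPML and WDR4. They also include SLC2A1, at 219 on siCtrl, and the half-width is too narrow for such dim probes. The median over all named genes was 0.10 higher on siPML than on siCtrl. With the median of all named genes subtracted from every array, PFKFB3 stood at 0.91 and 6 of the 31 were at least 2-fold higher. Of all genes above the filter, 1.77% were at least 2-fold higher in that setting.

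On WDR4, few genes lay far from vector, and more were higher than lower. PKLR, the liver and red cell pyruvate kinase, was 2.62-fold higher, and it was the 1 gene of 31 (3.23%) that was at least 2-fold higher, where 0.362% of all genes were. PKLR was below the filter intensity on both control arrays and passed the filter through its values on WDR4 and siPML, so nothing is read from this count. None was at least 2-fold lower, against 0.285%. FBP1, the gluconeogenic fructose-bisphosphatase, was 1.81-fold higher and was the other gene above the middle 95% of all genes, a span of -0.63 to 0.62, and it passed the filter through its value on WDR4. The median difference was 0.06 for the 31 genes and -0.04 for all genes above the filter. Of the 25 genes away from the scanner limit, 11 were higher and 3 lower by more than the technical half-width, and 11 were within it, where 25.1% of all genes were higher and 32.9% lower.

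**Figure D2:**
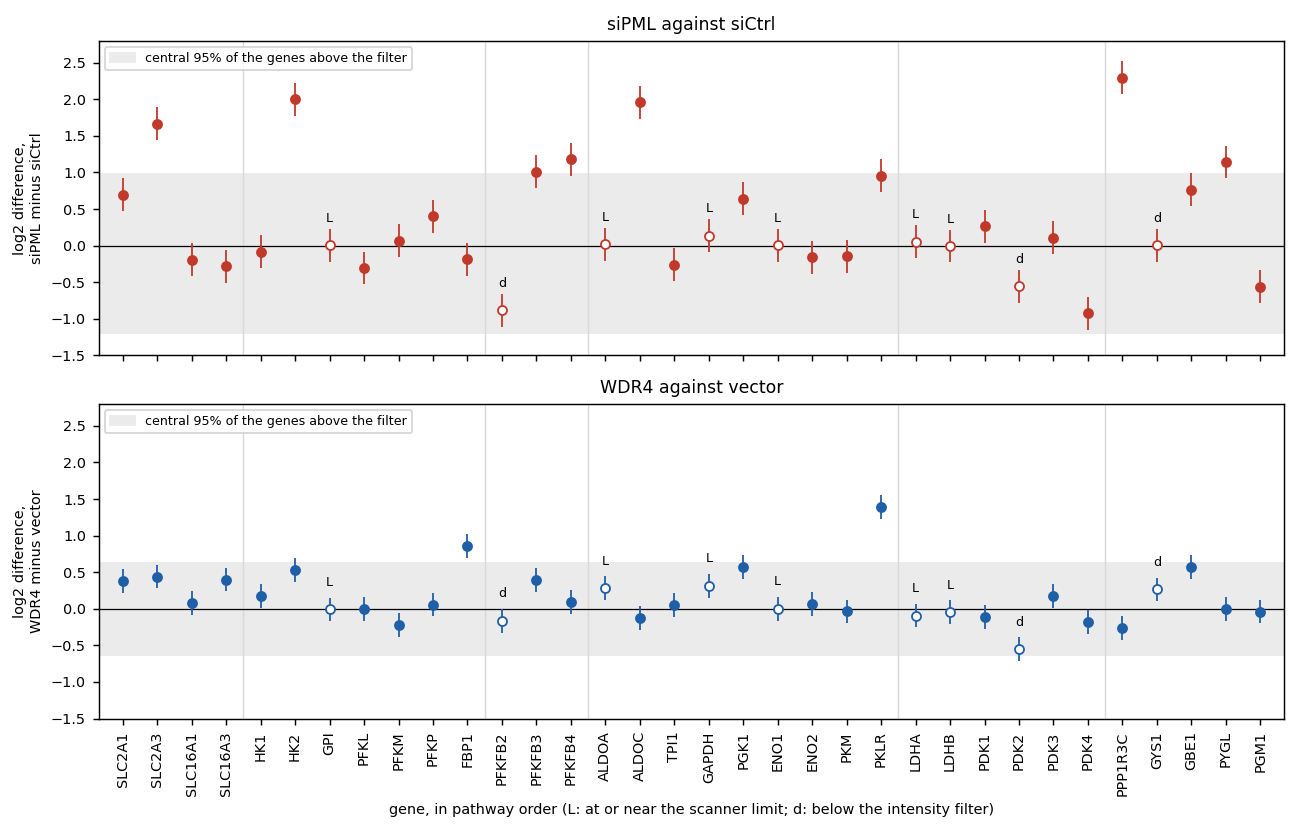
Log2 differences of the 34 measured genes in pathway order, siPML minus siCtrl above and WDR4 minus vector below, with bars of the 95% technical half-width and the middle 95% of all genes above the filter in grey. Open points are at or near the scanner limit (L) or below the intensity filter (d); PPP1R3C, HK2, ALDOC and SLC2A3 lead the upper panel and PKLR the lower.

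The bases upstream of the start sites of genes that were higher together on siPML are shown because hypoxia-inducible factor, a known inducer of glycolytic genes, binds cores of the letters ACGTG or GCGTG. The windows are the 250 bases before the first start site listed by RefSeq for GRCh38.p14, read 5′ to 3′ on the gene's strand, and capitals mark these cores on either strand. CACGTG, the E-box, holds an ACGTG core on each strand and is counted once. PPP1R3C lies at chr10:91633072-91633321 on the minus strand and HK2 at chr2:74833877-74834126 on the plus strand. ALDOC lies at chr17:28576896-28577145, PFKFB4 at chr3:48556804-48557053 and PYGL at chr14:50944484-50944733, all on the minus strand.
PPP1R3C: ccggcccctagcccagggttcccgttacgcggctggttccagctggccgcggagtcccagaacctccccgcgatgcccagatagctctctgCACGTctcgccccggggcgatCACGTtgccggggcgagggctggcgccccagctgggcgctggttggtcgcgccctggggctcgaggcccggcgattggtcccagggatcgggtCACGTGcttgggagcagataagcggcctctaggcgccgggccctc
HK2: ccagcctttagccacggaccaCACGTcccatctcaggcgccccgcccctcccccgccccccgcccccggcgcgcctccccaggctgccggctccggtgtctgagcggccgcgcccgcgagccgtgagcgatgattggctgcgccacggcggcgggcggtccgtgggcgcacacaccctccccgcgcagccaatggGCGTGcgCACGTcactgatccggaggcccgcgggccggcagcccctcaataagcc
ALDOC: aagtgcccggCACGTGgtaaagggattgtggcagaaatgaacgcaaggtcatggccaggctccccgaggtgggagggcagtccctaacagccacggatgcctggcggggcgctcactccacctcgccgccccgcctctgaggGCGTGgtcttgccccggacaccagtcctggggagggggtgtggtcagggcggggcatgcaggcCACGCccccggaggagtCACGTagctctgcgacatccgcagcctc
PFKFB4: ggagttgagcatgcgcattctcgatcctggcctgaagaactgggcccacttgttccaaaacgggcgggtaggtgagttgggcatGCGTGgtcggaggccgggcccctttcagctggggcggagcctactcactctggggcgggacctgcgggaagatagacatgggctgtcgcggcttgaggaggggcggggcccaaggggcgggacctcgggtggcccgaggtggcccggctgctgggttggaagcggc
PYGL: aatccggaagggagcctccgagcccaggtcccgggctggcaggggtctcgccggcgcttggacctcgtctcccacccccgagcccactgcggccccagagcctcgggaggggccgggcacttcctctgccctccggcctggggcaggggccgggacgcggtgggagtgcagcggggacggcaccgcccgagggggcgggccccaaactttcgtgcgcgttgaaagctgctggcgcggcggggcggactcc

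The window of PPP1R3C held 3 separate matches, that of HK2 3, that of ALDOC 4 and that of PFKFB4 1, while that of PYGL held none. SLC2A3 had no entry. PFKFB3 and HK2 have a pair of starts each, and neither PFKFB3 window, with 1 match each, nor the second of HK2, with 4, is printed here. Over all 63 listed windows of the 32 genes with an entry, 54.0% held at least 1 match, and over all 35093 different windows of the genome 43.2% did. More than 1 match was held by 19.3% of the windows of the genome, when both cores of an E-box are counted. The E-box was in 14.3% of the windows of the 32 genes and in 6.34% of all windows. By gene, 26 of 32 had a match in some window, where 47.4% of all 27305 genes did. Of the 32, 13 have several starts, and each further window is a further place for a match. The 27305 genes go beyond the 18255 named on the array and were not filtered on intensity, so the sets are unlike. Matches also stood before genes that were not higher on siPML, such as ENO2, PFKL and GYS1. A match is a run of letters and not a binding site.

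Glucose import was the first step with a large difference. SLC2A3 read 2976 on siPML and 936 on siCtrl, and 600 on WDR4 and 442 on vector. It was highest on siPML, with a log2 difference of 1.67 from siCtrl, and siCtrl in turn lay above WDR4 and vector. WDR4 lay above vector by 0.44. The other SLC2A3 probe read 1706 on siPML and 1033 on siCtrl, and 654 on WDR4 and 444 on vector. It went the same way in both pairs, by 0.72 and 0.56, and so gave a smaller difference on siPML.

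SLC2A1, the basal transporter GLUT1, was dim, at 356 on siPML and 219 on siCtrl, and at 325 on WDR4 and 250 on vector. Its paired readings were 389 and 323 on siPML and 248 and 191 on siCtrl, and they did not overlap. On WDR4 they were 306 and 344 and on vector 230 and 269. The differences were 0.70 and 0.38. At the other end of the pathway, the lactate exporters were not higher on siPML. SLC16A3 (MCT4) read 2915 on siPML and 3541 on siCtrl, and 4970 on WDR4 and 3771 on vector, so that it was lower in the first pair (-0.28) and higher in the second (0.40). SLC16A1 (MCT1) read 1160 on siPML and 1325 on siCtrl, and 1458 on WDR4 and 1382 on vector, with differences of -0.19 and 0.08.

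Phosphorylation of glucose separated the hexokinases. HK2 read 3681 on siPML and 919 on siCtrl, and 2376 on WDR4 and 1641 on vector. Its lowest value was on siCtrl, and the differences were 2.001 and 0.53. HK1, the constitutive hexokinase, read 14546 on siPML and 15407 on siCtrl, and 13997 on WDR4 and 12386 on vector. Its 4 values were close, with differences of -0.08 and 0.18. GPI, which turns glucose 6-phosphate into fructose 6-phosphate, was at the scanner limit on siPML and siCtrl and read 60864 on WDR4 and 61197 on vector.

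The phosphofructokinase subunits themselves differed little. PFKP, the platelet-type subunit, read 52029 on siPML and 39366 on siCtrl, and 32164 on WDR4 and 30916 on vector. It was highest on siPML, with a difference of 0.40, which lies well inside the span of all genes. PFKM, the muscle type, read 2088 on siPML and 1990 on siCtrl (0.07), and 1892 on WDR4 and 2200 on vector (-0.22), while its second probe read under 30 on all arrays. PFKL, the liver type, differed by -0.31 on siPML and -0.01 on WDR4, and its second probe by 0.09 and 0.11, so its direction depended on the probe. FBP1, which runs the step backwards, read 187 on siPML and 213 on siCtrl, and 437 on WDR4 and 240 on vector. Its paired readings on WDR4, 459 and 415, lay above those on vector, 223 and 258, and the difference was 0.86.

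The enzymes that set fructose 2,6-bisphosphate, the activator of phosphofructokinase, differed among themselves. PFKFB3, an inducible form that mostly makes this activator, read 28978 on siPML and 14371 on siCtrl, and 6820 on WDR4 and 5204 on vector. PFKFB4 read 4010 on siPML and 1773 on siCtrl, and 734 on WDR4 and 687 on vector. In both genes siPML was highest, siCtrl followed, and the WDR4 and vector arrays were lowest, and the differences on siPML were 1.01 and 1.18. On WDR4 they were 0.39 for PFKFB3 and 0.10 for PFKFB4. PFKFB2, the heart type, was below the filter and ran the other way, at 69.2 on siPML and 128 on siCtrl, and at 219 on WDR4 and 245 on vector. Its differences were -0.88 and -0.16, and both its dimmer probes were also lower on siPML.

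Among the triose steps, ALDOC stood apart from ALDOA, the ubiquitous aldolase. ALDOC read 12460 on siPML and 3207 on siCtrl, and 1668 on WDR4 and 1819 on vector. Its second probe read 5993 on siPML and 1562 on siCtrl, and 798 on WDR4 and 996 on vector. Both probes were highest on siPML and lowest on WDR4, with differences of 1.96 and 1.94 in the first pair and of -0.13 and -0.32 in the second.

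The brighter ALDOA probe was near the scanner limit, at 60731 on siPML and 60070 on siCtrl, and read 55294 on WDR4 and 45544 on vector. The dimmer ALDOA probe, far from the limit, read 964 on siPML and 1483 on siCtrl, and 754 on WDR4 and 581 on vector. It was lower on siPML by -0.62 and higher on WDR4 by 0.37. TPI1, which interconverts the trioses, read 6823 on siPML and 8177 on siCtrl (-0.26), and 3184 on WDR4 and 3066 on vector (0.05).

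GAPDH, the glyceraldehyde 3-phosphate dehydrogenase, was at the scanner limit on siPML and WDR4 and read 59919 on siCtrl and 52709 on vector. Both of the last values were near the limit as well, so its differences of 0.13 and 0.31 may be compressed. PGK1, the first ATP-yielding enzyme, read 1944 on siPML and 1249 on siCtrl, and 784 on WDR4 and 527 on vector. It was higher in both pairs, by 0.64 and 0.57. The neuronal enolase ENO2 read 6364 on siPML and 7119 on siCtrl, and 6373 on WDR4 and 6108 on vector, and its differences of -0.16 and 0.06 were inside the technical half-width. ENO1, the main enolase, gave no usable difference.

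At the pyruvate kinase step, PKLR read 323 on siPML and 166 on siCtrl, and 378 on WDR4 and 143 on vector. It was high on siPML and WDR4 and low on both control arrays, with differences of 0.96 and 1.39. The paired readings were 316 and 330 on siPML against 202 and 130 on siCtrl. They were 361 and 395 on WDR4 against 107 and 180 on vector, so the readings of the control arrays disagreed with each other but stayed below the others. The dimmer PKLR probe read 127 on siPML and 101 on siCtrl, and 126 on WDR4 and 97.8 on vector. It went the same way by 0.32 and 0.36, and the mean over the 2 probes on WDR4 was 0.88 above vector. PKM, the main pyruvate kinase of proliferating cells, read 30222 on siPML and 33442 on siCtrl (-0.15), and 16436 on WDR4 and 16855 on vector (-0.04).

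The lactate dehydrogenases were too bright to compare. LDHA was at the limit on siPML and read 63390 on siCtrl, and 60517 on WDR4 and 64567 on vector. LDHB read 65318 on siPML and was at the limit on siCtrl, and read 51598 on WDR4 and 53353 on vector.

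Of the kinases that shut pyruvate dehydrogenase, none was at least 2-fold different in either pair, although PDK4 on siPML reached -1.03 with the array medians subtracted. PDK1, a known hypoxia target, read 1466 on siPML and 1222 on siCtrl, and 503 on WDR4 and 543 on vector. Its difference on siPML was 0.26, far below those of HK2 or PFKFB4. PDK3 read 1999 on siPML and 1854 on siCtrl, and 640 on WDR4 and 568 on vector (0.11 and 0.17). PDK4, which is induced by fasting and fatty acids, read 332 on siPML and 631 on siCtrl, and 1023 on WDR4 and 1159 on vector. It was lowest on siPML, 0.527 times siCtrl (-0.92), the lowest difference of the 31 genes in that pair. PDK2, below the filter, differed by -0.56 on siPML and by -0.55 on WDR4, but its dimmer probe differed by 0.17 and 0.39.

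In glycogen metabolism PPP1R3C and PYGL were higher on siPML, and the glycogen synthase GYS1 was not. PPP1R3C read 7797 on siPML and 1592 on siCtrl, and 683 on WDR4 and 821 on vector. It had the highest difference of the 31 genes on siPML, 2.29, and was slightly lower on WDR4 (-0.27). GBE1, the branching enzyme, read 3098 on siPML and 1823 on siCtrl, and 927 on WDR4 and 624 on vector. It was higher in both pairs, by 0.76 and 0.57. GYS1, the muscle glycogen synthase, was below the filter at 196 on siPML and 195 on siCtrl, and at 134 on WDR4 and 112 on vector. PYGL read 2211 on siPML and 1001 on siCtrl, and 1047 on WDR4 and 1050 on vector. Its second probe read 1021 on siPML and 728 on siCtrl, and 365 on WDR4 and 305 on vector. The brighter PYGL probe differed by 1.14 on siPML and the dimmer one by 0.49, and the mean over both was below 2-fold, at 0.81. PGM1, which links glycogen to glycolysis, read 9150 on siPML and 13487 on siCtrl (-0.56), and 8906 on WDR4 and 9141 on vector (-0.04).

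Isoforms of the same step were compared by their differences between arrays, since levels of different probes have no common scale. On siPML, HK2 exceeded HK1 by 2.08, ALDOC exceeded ALDOA by 1.94, and PFKFB4 and PFKFB3 exceeded PFKFB2 by 2.06 and 1.89. PKLR exceeded PKM by 1.10 and SLC2A3 exceeded SLC2A1 by 0.97. These separations depended on the probe, since the other SLC2A3 probe differed by 0.72, close to the 0.70 of SLC2A1, and the other PKLR probe by 0.32. PFKFB2 was below the filter, and its dimmer probes differed by -0.45 and -0.10, against -0.88 for the brightest. By contrast, PFKFB4 and PFKFB3 differed from each other by 0.17. SLC16A3 and SLC16A1 differed by -0.09. For ALDOA, ENO1, LDHA and LDHB the comparison is limited by the scanner, and against the dimmer ALDOA probe, which was lower on siPML, the separation of ALDOC would be wider. On WDR4 the only separation above 1 among the 15 pairs was PKLR over PKM, at 1.43. The next were PDK3 over PDK2 at 0.72 and PFKFB3 over PFKFB2 at 0.55, with PDK2 and PFKFB2 below the filter. PDK1 exceeded PDK2 by 0.44, ALDOC minus ALDOA was -0.41, PDK4 exceeded PDK2 by 0.37, and HK2 exceeded HK1 by 0.36. These values depended on the probe as well. On WDR4 the other PDK2 probe differed by 0.39, above the 0.17 of PDK3, and the other PKLR probe by 0.36. The dimmer PFKFB2 probes differed by 0.27 and -0.29.

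**Figure D3:**
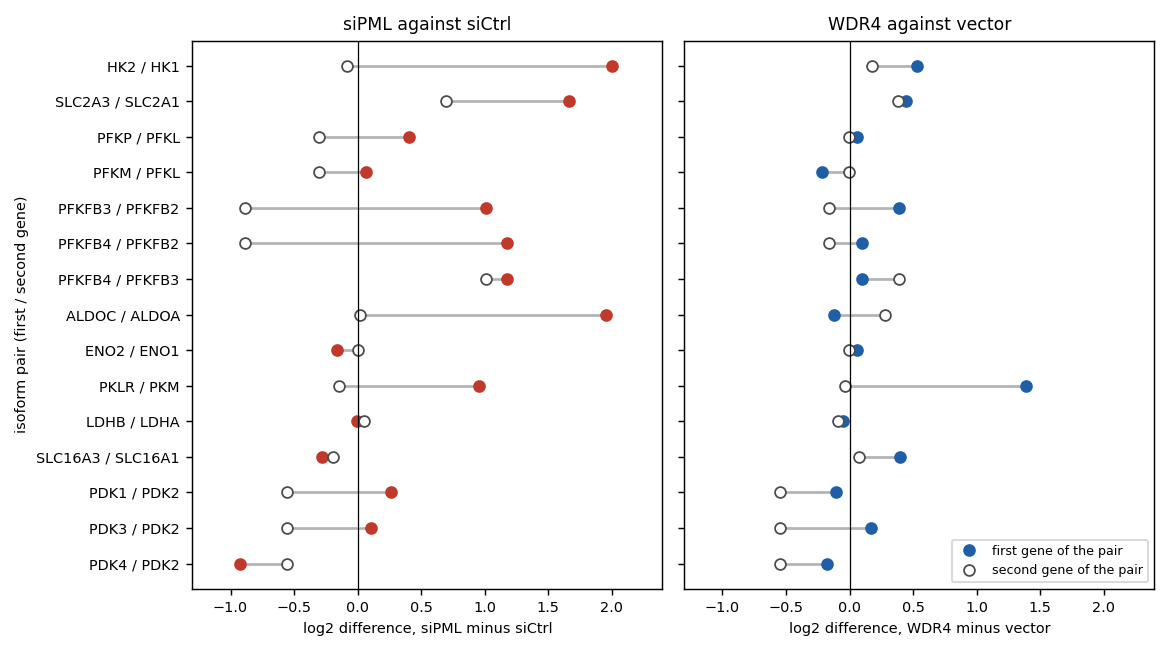
Log2 differences of the genes of 15 isoform pairs, siPML minus siCtrl on the left and WDR4 minus vector on the right, with filled points for the first gene of a pair and open points for the second. The lines are longest for HK2 / HK1, PFKFB4 / PFKFB2 and ALDOC / ALDOA on siPML and for PKLR / PKM on WDR4.

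Of the 10 genes with several probes, all probes went the same way for 6 genes on siPML and for 4 on WDR4. The probes of PFKL, PFKM, ALDOA and PDK2 disagreed in sign on siPML.

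The control arrays themselves differed at this pathway, and this bears on every difference above. On vector, 8 of the 31 genes were at least 2-fold lower than on siCtrl, where 3.14% of all genes were, and none was at least 2-fold higher, where 9.43% were. The 8 were PDK3 (-1.70), GBE1 (-1.54), PFKFB3 (-1.47), TPI1 (-1.41), PFKFB4 (-1.37), PGK1 (-1.24), PDK1 (-1.17) and SLC2A3 (-1.08). PKM followed at -0.99. HK2 and PDK4 were higher on vector, by 0.84 and 0.87. The median of the 31 genes was -0.31, while that of all genes above the filter was 0.10. What was transfected, the culture and the array are all confounded in this comparison and cannot be told apart.

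Set against vector in place of siCtrl, siPML had 13 of the 31 genes at least 2-fold higher, where 3.70% of all genes were, and 1 at least 2-fold lower, where 12.6% were. The differences from vector were 3.25 for PPP1R3C, 2.78 for ALDOC, 2.75 for SLC2A3, 2.54 for PFKFB4, 2.48 for PFKFB3, 1.16 for HK2 and 1.07 for PYGL. PKLR stood at 1.17 and is among the 13. It was below the filter intensity on both control arrays and passed the filter through its values on siPML and WDR4, so its call is not read. TPI1, PGK1, PDK1, PDK3 and GBE1 stood at 1.15, 1.88, 1.43, 1.81 and 2.31 there, and the lower gene was PDK4 at -1.80. Set against siCtrl in place of vector, WDR4 had 3 of the 31 genes at least 2-fold higher, where 8.13% of all genes were, and 7 at least 2-fold lower, where 3.11% were. The 3 were HK2 (1.37), PKLR (1.18) and FBP1 (1.03), of which PKLR and FBP1 were below the filter intensity on siCtrl. PGK1, GBE1 and SLC2A3, which were above vector on WDR4, were below siCtrl there, by -0.67, -0.97 and -0.64. These comparisons share arrays with the ones above and are not independent of them.

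**Figure D4:**
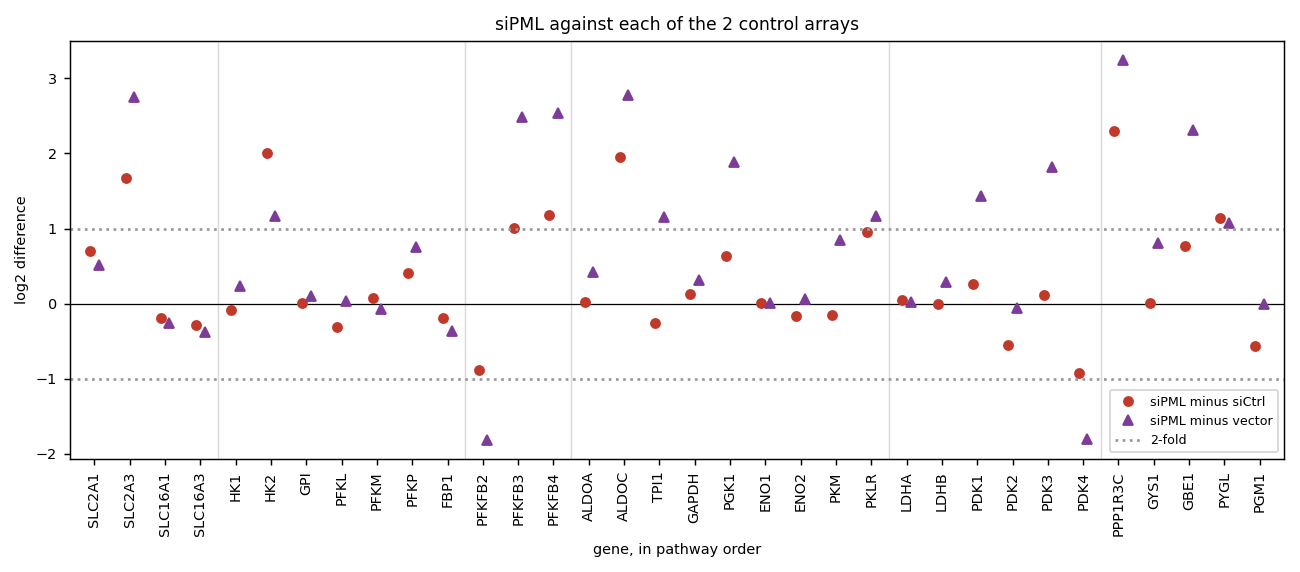
Log2 differences of the 34 measured genes in pathway order, siPML minus siCtrl (circles) and siPML minus vector (triangles), with dotted lines at 2-fold. PPP1R3C, ALDOC, SLC2A3, PFKFB3 and PFKFB4 lie further above vector than above siCtrl, and HK2 lies closer to vector.

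Neighbouring parts of glucose metabolism were examined as lists. Of all genes above the filter, 2.30% were at least 2-fold higher and 4.27% lower on siPML. On WDR4 these shares were 0.362% and 0.285%. Among other isozymes of the same steps, 8 of 19 measured genes were above the filter. None was at least 2-fold higher on siPML and 2 were at least 2-fold lower, with a median of -0.58. HKDC1, a further hexokinase-like protein, read 223 on siPML and 544 on siCtrl (-1.28). BPGM, which makes 2,3-bisphosphoglycerate, read 653 on siPML and 1332 on siCtrl (-1.03), and the muscle enolase ENO3 differed by -0.93. On WDR4 none of the 8 was 2-fold different, and LDHD was the lowest at -0.50.

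Of pyruvate dehydrogenase and pyruvate import, 8 of 10 genes were above the filter, with a median of -0.37 on siPML and -0.09 on WDR4. PDPR, the regulatory subunit of the activating phosphatase, read 515 on siPML and 1103 on siCtrl (-1.10), and was 0.55 below vector on WDR4. The carrier subunit MPC1 differed by -0.58 and -0.50. Of the gluconeogenic genes, 3 of 7 were above the filter and none was 2-fold different. PC, pyruvate carboxylase, differed by -0.69 on siPML, and PCK2, the mitochondrial phosphoenolpyruvate carboxykinase, by -0.73 on WDR4.

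Of the other glycogen genes, 15 of 24 were above the filter, with medians of 0.07 on siPML and -0.05 on WDR4. PPP1R3G, a further glycogen-targeting subunit of protein phosphatase 1, was the only 1 of the 15 at least 2-fold different, at 701 on siPML and 267 on siCtrl (1.39), and at 243 on WDR4 and 213 on vector (0.19). PPP1R3B, of the same family, differed by 0.03 and -0.08. The pentose phosphate pathway had 6 of 8 measured genes above the filter, none 2-fold different in either pair, with medians of -0.10 and -0.19. RPE stood at 0.44 on siPML, and TKT at -0.41 on WDR4. TKT was at the scanner limit on siPML and siCtrl, and without it the median on siPML was -0.20.

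Hypoxia-induced genes outside glycolysis had 13 of 15 members above the filter. On siPML 3 of the 13 were at least 2-fold higher, where 2.30% of all genes above the filter were. On WDR4 1 of the 13 was, where 0.362% of all genes were. The medians were 0.72 and 0.52, against 0.01 and -0.04 for all genes above the filter. P4HA1, BNIP3L and BNIP3 differed by 1.43, 1.03 and 1.00 on siPML, and ANGPTL4 by 1.42 on WDR4. BNIP3L and BNIP3 exceeded 2-fold by less than 0.10, the amount by which the median over all named genes was higher on siPML. ANGPTL4 read 7902 on WDR4, 2957 on vector and 9406 on siCtrl, so on WDR4 it was below siCtrl, by -0.25. Of the regulators, 6 of 9 were above the filter. HIF1A, the oxygen-regulated subunit of hypoxia-inducible factor, read 2183 on siPML and 8683 on siCtrl, and 8385 on WDR4 and 11720 on vector. Its RNA was thus lowest on siPML, by -1.99, and its second probe was lower there too, by -0.78, while on WDR4 the probes differed by -0.48 and 0.36. EPAS1, the HIF2 alpha subunit, differed by 0.38 and 0.04, and MYC by 0.19 and 0.29. TXNIP, a glucose-responsive inhibitor of glucose uptake, failed the filter at 124 on siPML and 74.4 on siCtrl, but on WDR4 it read 431, against 73.1 on vector, a ratio of 5.83.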

How the data were processed

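Total RNA of A549 cells was extracted, amplified and labelled with Cy5, per the labels' protocols, and hybridised to 1 one-colour array for each of 4 groups. The authors deposited an intensity on a linear scale for every probe of each array. How these were scanned, background-corrected or normalized is not stated in what was used here. The linear scale was read from the values, which run from slightly below 0 to a common ceiling on each array.

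Of 31741 probes, 24658 carried 1 gene symbol, 1002 several and 6081 none. Only the first were used, and 2177 symbols were updated through the RefSeq gene table. Negative intensities were replaced by 0, and log2 was taken after adding 1. The probe of highest mean log2 value stood for its gene, and counts and backgrounds cover genes whose mean reached the median of all named genes. Values within 10 units of an array's maximum were taken as at the scanner limit.

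Between 10 and 600 units, at least 97.3% of the intensities of each array matched the mean of a pair of whole numbers, each times a constant of that array, within 4e-05. After a shift of 0.0137, at most 7.80% did. The origin of the pairs is unstated, so each group counts as 1 sample. The technical standard error combines the standard deviations of the log2 ratio of the paired readings on the arrays compared, for the mean of each pair.

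No p-value was computed, and the number of arrays limits the precision. Every listed gene was described. Of the neighbouring lists, genes above the filter at least 2-fold different in either comparison were named, otherwise up to 3 per list with the largest difference, with HIF1A, EPAS1, MYC and TXNIP always named. The genes, lists and alternatives were chosen with earlier results of these data known. Upstream sequences are from RefSeq, GRCh38.p14. The steps were tested on simulated arrays. Computations used Python 3.11.15, numpy 2.4.6, pandas 2.3.3 and matplotlib 3.10.9.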

Additional observations from a re-analysis of the deposited data

How the results depend on the processing

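The count of genes at least 2-fold higher on siPML than on siCtrl stayed between 6 and 7 under quantile normalization, centring, either other filter, the mean over probes, 16 added before log2, removal of genes at the scanner limit and removal of the intensity trend. Over these settings, 1.49% to 4.02% of all genes were at least 2-fold higher. The count was 13 against the vector array, where 3.70% of all genes were higher. It was 10 against the mean of both controls, where 1.65% of all genes were higher. At 1.5-fold it was 11, where 10.1% of all genes were higher and 12.9% lower. The counts against vector, against both controls and at 1.5-fold include PKLR, which passed the filter through its values on siPML and WDR4. The count of lower genes became 1 under centring (PDK4), against vector, against the mean of both controls and at 1.5-fold. The shares of all genes lower were 5.47%, 12.6%, 6.63% and 12.9% in these settings. The median became -0.033 under centring, 0.51 against vector and 0.35 against the mean of both controls. On WDR4, where PKLR was the only such gene, the count of higher genes became 0 with the upper-quartile filter and with the mean over probes, and 2 at 1.5-fold, where 3.09% of all genes were higher and 3.34% lower. The share of all genes higher was 0.241% with the upper-quartile filter and 0.307% with the mean over probes. Against siCtrl the count was 3, where 8.13% of all genes were higher, with 7 lower, where 3.11% were. The median on WDR4 became -0.018 under centring, -0.16 against siCtrl and -0.080 against the mean of both controls. The reason for these turns was not tested.

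Centring changed the calls over all genes to 162 higher and 499 lower on siPML, from 210 and 390, and to 27 higher and 38 lower on WDR4, from 33 and 26. Without the filter on dim genes they were 734 higher and 578 lower on siPML, and 404 and 81 on WDR4. No paired analysis was possible because each group has 1 array, and no array was left out for the same reason. ENO1, GPI, GAPDH, LDHA, LDHB and the brighter ALDOA probe were at or near the scanner limit, which limits their differences.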

Other observations

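PGAM1, a phosphoglycerate mutase, had no probe annotated to it alone. The 3 probes annotated to both PGAM1 and PGAM4 read 26028, 7298 and 5843 on siPML and 37517, 11131 and 7350 on siCtrl. All 3 were lower on siPML, with log2 differences of -0.53, -0.61 and -0.33. On WDR4 the same probes read 29498, 8325 and 7423, and on vector 20963, 7743 and 5093, so all 3 were higher on WDR4, by 0.49, 0.10 and 0.54. A probe annotated to TPI1 and the pseudogene TPI1P2 read 20832 on siPML and 21187 on siCtrl (-0.02), and 16709 on WDR4 and 11885 on vector (0.49). The last value differs from the 0.05 of the probe annotated to TPI1 alone. These probes cannot be assigned to either of their genes.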
